A study of Mus musculus with 20 samples.

Results

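Vascular growth factors, their receptors and markers of the endothelium make up the 10 genes described here. They are the ligands Vegfa, Vegfb and Angpt1, the receptors Flt1, Kdr, Nrp1 and Tek, and the endothelial genes Cdh5, Pecam1 and Lmo2. The genes were chosen by symbol, through the Ensembl identifier of each row, among the 55416 genes listed in the counts. All 10 were among the 14471 genes with enough counts to be tested. The counts came from the injected quadriceps of 20 male, wild-type C57BL/6J mice, 26 to 28 months old. Control muscles of 10 mice received 50 µL of saline. Muscles of the other 10 mice received 50 µL of secretome, the pooled and concentrated medium of partially differentiated human embryonic stem cells from a single line, at 0.4% in saline. All mice of this experiment had been fasted for 4 h, were injected once and were sampled 3 h later, so that both groups share the fast, the needle and the age.

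Muscle fibres are themselves a source of VEGF-A, a secreted protein that makes endothelial cells divide and migrate through the receptor KDR, while FLT1 binds the same ligand tightly and can act as a trap for it. Angiopoietin 1, made by cells around the vessel, activates the receptor TEK (TIE2) and keeps capillaries stable, and neuropilin 1 is a co-receptor for VEGF-A and for semaphorins. VE-cadherin (Cdh5) and CD31 (Pecam1) hold endothelial cells together, and LMO2 is an adaptor that joins transcription factors on DNA in blood-forming and endothelial cells. The study counted CD31-stained capillaries after repeated injections, and its list of secretome factors names VEGF receptor 1 (the product of FLT1), angiopoietin 1, and VEGFA as a target of vesicle microRNAs. The comparison of secretome-treated with control muscle asks here whether the RNA of the host's own genes of this system differed hours after the injection.

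Gene counts summed to between 13286983 and 22987237 per library. The share of Ttn, which encodes the fibre protein titin, followed the library numbers. It was 7.02% to 11.03% in libraries 1 to 5, all controls, 16.4% to 21.1% in libraries 6 to 15, with 5 muscles of each treatment, and 14.2% to 14.7% in libraries 16 to 20, all secretome-treated. The labels name no batch. Values are therefore given for all muscles, within libraries 6 to 15, and for libraries 1 to 5 against 16 to 20, where treatment and library number cannot be told apart. The summed level of 8 muscle fibre markers was at least 117760 CPM (read counts scaled to a common library size) in every muscle, which fits the labelled tissue, and none of 30 further endothelial genes was at 0 in all muscles.

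Lmo2 was the member that differed most between treatments. In control muscle its mean was 4.46 ± 1.25 CPM, and after secretome it was 2.54 ± 0.573 CPM (SD, n = 10 and 10), a fold of 0.570. The gene with the next lowest fold, Vegfa, was at 0.831. By the quasi-likelihood test of edgeR with p adjusted after Benjamini and Hochberg, 0 of the 10 genes passed a 5% false discovery rate, as against 0.00691% of all genes tested (1 gene). DESeq2 called 1 of the 10, Lmo2, where it called 1.25% of the genes with an adjusted p. At an unadjusted p under 0.05, edgeR gave 1 of 10, again Lmo2, against 15.7% of all genes. Of all genes, 9.21% were lower and 6.52% higher at that p. The log2 fold change was below 0 in 6 of the 10, against 55.9% of all genes.

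**Figure D1:**
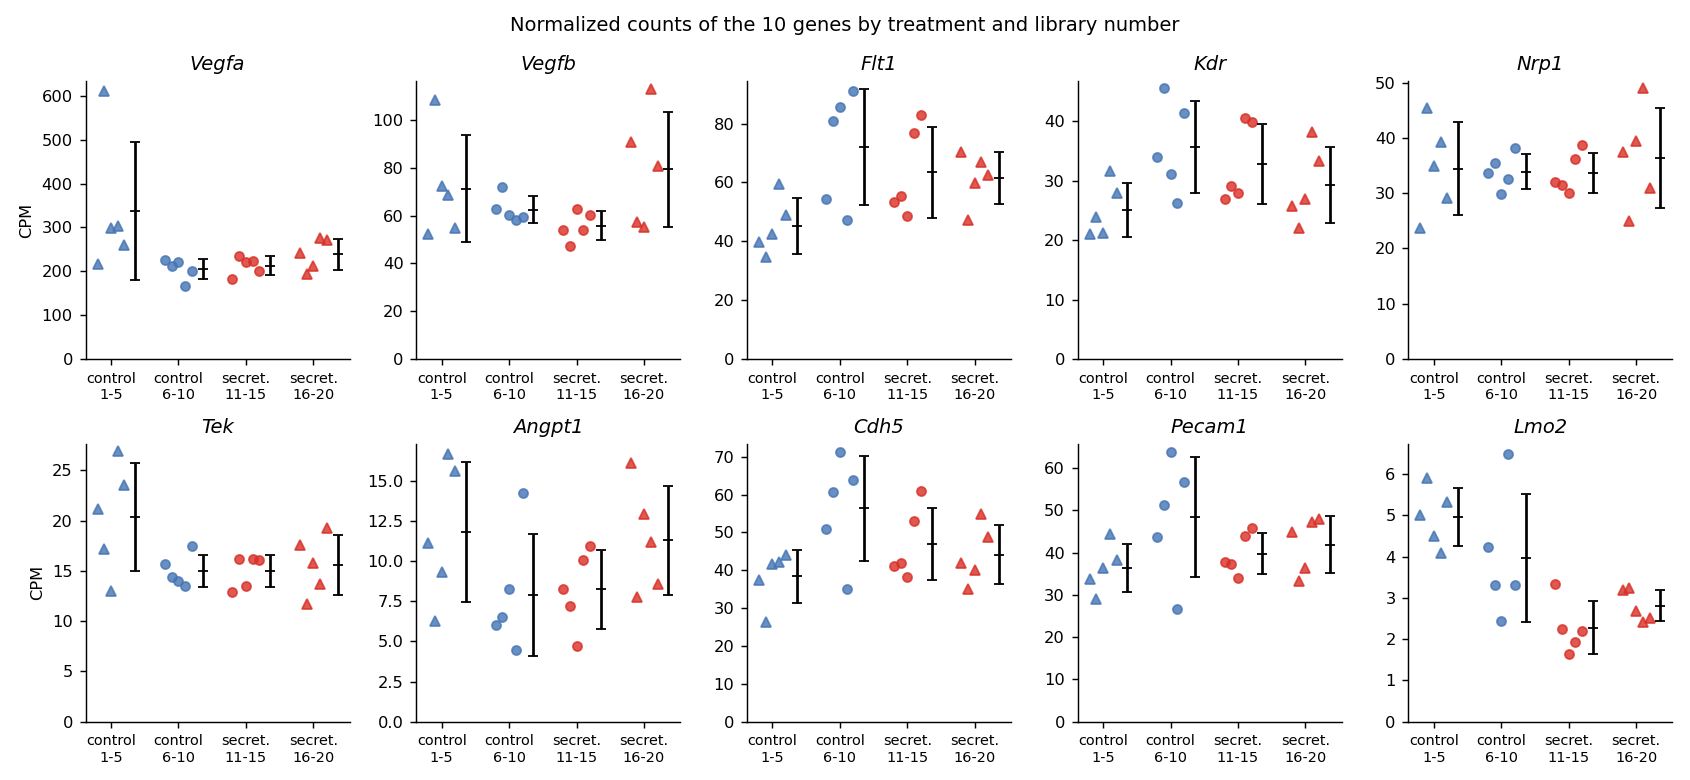
CPM of the 10 genes (vertical axes, starting at 0) in each muscle, by treatment and library number, with the mean ± SD of each group of 5 in black. Circles are libraries 6 to 15 and triangles the other libraries. Lmo2 was at most 3.34 CPM in secretome-treated muscle, and Vegfa reached 611.6 CPM in 1 control.

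Vegfa (chromosome 17, 46016993 to 46032369, minus strand, all positions here in the GRCm38 annotation) had the highest level per length of the 10 genes, with 63.4 CPM per kb of exon in controls. Vegfb (chromosome 19, 6982473 to 6987651, minus strand), whose product binds FLT1 and is known for roles in fatty acid handling, followed with 41.7 CPM per kb. Angpt1 (chromosome 15, 42424723 to 42676977, minus strand) had the lowest, 1.89 CPM per kb. Between them lay, in CPM per kb, Cdh5 at 11.3, Pecam1 at 6.81, Flt1 at 4.33, Tek at 3.75, Nrp1 at 3.49, Kdr at 3.36 and Lmo2 at 2.06. Flt1, Tek (SD 0.997), Nrp1 (SD 0.617) and Kdr (SD 0.907) had overlapping spreads, as did Lmo2 (SD 0.579) and Angpt1 (SD 0.839).

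Vegfa ranged from 166.8 to 611.6 CPM in control muscle, with a median of 223.2, and from 181.8 to 275.2 CPM in secretome-treated muscle, with a median of 222.1. The medians were close, and 5 of 10 secretome-treated muscles lay below the control median. The mean was 271.6 ± 126.8 CPM in controls and 225.6 ± 31.2 CPM after secretome, a log2 fold change of -0.27 (95% confidence interval -0.63 to 0.09, p = 0.138, adjusted p = 0.451). Control replicate 2, at 611.6 CPM, was 2.01 times the next control. Without it the log2 fold change was -0.05. In libraries 6 to 15 it was 0.06, with an interval of -0.17 to 0.29. Between libraries 1 to 5 and 16 to 20 it was -0.50 (p = 0.0202, adjusted p = 0.154), and -0.17 without control replicate 2 (p = 0.197).

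Vegfb differed little over all muscles. Its levels ran from 52.2 to 108.3 CPM in controls (median 61.5) and from 47.3 to 113.0 CPM after secretome (median 58.9), and the groups overlapped over nearly their whole range. The log2 fold change was 0.02 (interval -0.30 to 0.33), and -0.15 within libraries 6 to 15 (interval -0.37 to 0.06, p = 0.152, adjusted p = 0.611). In libraries 6 to 15, 3 of 5 secretome-treated muscles lay below every control, and 2 lay above the control median. Control replicate 2 was also the highest control for Vegfb. Across the 20 muscles, with the mean of each of the 4 groups of treatment and library range removed, log2 CPM of Vegfa and Vegfb had a Pearson r of 0.76 (0.63 without control replicate 2). Nrp1 had an r of 0.61 with Vegfa and 0.69 with Vegfb. These correlations are descriptions, over muscles that were scaled together.

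Of the microRNAs that the study names in the vesicles of the secretome, 8 of 9 mature names were found in the mouse RefSeq table (GRCm38.p6). They are shown because VEGFA is among the targets listed for that set, with the seed (bases 2 to 8) in capitals and ordered by shared seed. The table holds the mouse sequences, while the vesicles came from human cells.
miR-93-5p: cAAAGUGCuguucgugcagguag
miR-20a-5p: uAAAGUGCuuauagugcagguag
miR-20b-5p: cAAAGUGCucauagugcagguag
miR-302d-3p: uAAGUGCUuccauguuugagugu
miR-130a-3p: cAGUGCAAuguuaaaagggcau
miR-16-5p: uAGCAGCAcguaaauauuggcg
miR-335-5p: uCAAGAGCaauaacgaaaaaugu
miR-302a-5p: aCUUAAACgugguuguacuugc
The first 3 share a seed, and the seed of miR-302d-3p overlaps it by all but 1 base. In the longest annotated 3′ untranslated region (UTR) of Vegfa, 1865 bases, the complement of a seed occurred 3 times, at bases 161, 162 and 261. The first, for the seed of miR-302d-3p, and the second, for that of miR-93-5p and its relatives, overlap. The stretch around base 162 lies at chr17:46018681-46018710 on the minus strand, and the capitals mark the match to miR-93-5p.
Vegfa, 3′ UTR, bases 148 to 177: agactcttcgaggaGCACTTTgggtccgga
The match for miR-16-5p lies at chr17:46018582-46018611, also on the minus strand.
Vegfa, 3′ UTR, bases 247 to 276: cattttcttatatcTGCTGCTaaatcgcca
Such matches are common. Of 21020 genes with an annotated 3′ UTR, 11.8% held GCACTTT, 14.7% AGCACTT and 20.3% TGCTGCT, and of the 1566 genes whose UTR was within 200 bases of the length of that of Vegfa, the shares were 15.9%, 19.6% and 26.4%. Among the other 9 genes, Flt1 held 3 matches over the 6 seeds, Pecam1 2, Kdr 1, and Vegfb, Nrp1, Tek, Angpt1, Cdh5 and Lmo2 none. A match of letters is not evidence of binding, and the part of these microRNAs in any level was not tested.

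Angpt1 varied widely between muscles of the same group. It ran from 4.44 to 16.7 CPM in controls (median 8.80) and from 4.74 to 16.1 CPM in secretome-treated muscle (median 9.30), so that the groups covered the same range. The log2 fold change was -0.01, with an interval of -0.50 to 0.47 that leaves room for a change in either direction. Angpt1 shares exon bases with Gm17473, an antisense gene, and the strand setting of the counting is not given in the sources used here.

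Among the receptors, Flt1 (chromosome 5, 147561604 to 147726011, minus strand) and Kdr (chromosome 5, 75932827 to 75978458, minus strand) had lower means in controls of libraries 1 to 5 than of libraries 6 to 10. These means were 45.1 and 71.9 CPM for Flt1 and 25.1 and 35.6 CPM for Kdr. In secretome-treated muscle, libraries 11 to 15 and 16 to 20 had means of 63.5 and 61.4 CPM for Flt1 and 32.8 and 29.2 CPM for Kdr. The difference between library ranges was not tested. In controls, Flt1 was 39.8, 34.8, 42.5, 59.6 and 48.8 CPM in libraries 1 to 5 and 54.4, 81.0, 85.6, 47.3 and 91.1 CPM in libraries 6 to 10. In secretome-treated muscle it was 53.3, 55.4, 48.7, 76.9 and 83.0 CPM in libraries 11 to 15 and 70.3, 47.3, 59.9, 67.1 and 62.4 CPM in libraries 16 to 20. The lowest 3 values were all controls of libraries 1 to 5, and the highest 2 were controls of libraries 6 to 10. Over all muscles the log2 fold change of Flt1 was 0.09 (interval -0.24 to 0.43, p = 0.570, adjusted p = 0.802). It was -0.17 in libraries 6 to 15 and 0.45 between the outer libraries (p = 0.0304, adjusted p = 0.184).

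The difference of these 2 Flt1 differences was -0.62 (interval -1.19 to -0.06, p = 0.0313, adjusted p = 0.377). Flt1 was the 1 of 10 members past an unadjusted p of 0.05 in that test, where 11.1% of all genes were (5.51% lower and 5.59% higher), and its p exceeded 0.05 in 9 of 20 fits that each left out a muscle. Of the 10 members, 6 were below 0 there, against 48.3% of all genes, and 0 passed the false discovery rate, against 0.0553% in edgeR and 1.49% in DESeq2. Kdr, the receptor that carries most VEGF-A signalling in endothelium, had 30.4 ± 8.20 CPM in controls and 31.0 ± 6.47 CPM after secretome. Its log2 fold change was 0.03 (interval -0.26 to 0.33) and -0.11 within libraries 6 to 15. The ratio of Flt1 to Kdr had a median of 1.85 in controls (1.46 to 2.75) and 1.94 in secretome-treated muscle (1.75 to 2.73), and the ranges overlapped.

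Promoters of 6 of the 10 genes were in the RefSeq table (GRCm38.p6, 250 bases before to 50 after each start). Those of Flt1 and Kdr are shown because their levels moved together across muscles (r = 0.75), with GGAAG, the core that ETS factors bind, on either strand, in capitals.
Flt1, chr5:147725962-147726261, minus strand: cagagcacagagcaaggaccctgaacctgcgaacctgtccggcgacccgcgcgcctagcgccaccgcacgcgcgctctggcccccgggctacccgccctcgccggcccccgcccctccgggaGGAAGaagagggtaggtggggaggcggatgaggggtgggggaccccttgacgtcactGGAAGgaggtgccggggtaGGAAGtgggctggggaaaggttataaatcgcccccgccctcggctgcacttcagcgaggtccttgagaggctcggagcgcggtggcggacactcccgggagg
Kdr, chr5:75978406-75978705, minus strand: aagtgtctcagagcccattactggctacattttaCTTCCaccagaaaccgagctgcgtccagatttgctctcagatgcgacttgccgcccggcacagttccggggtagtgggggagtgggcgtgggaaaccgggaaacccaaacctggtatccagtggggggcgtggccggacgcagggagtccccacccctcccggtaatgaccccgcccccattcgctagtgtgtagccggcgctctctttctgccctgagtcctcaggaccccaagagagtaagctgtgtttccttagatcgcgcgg
Flt1 held 3 matches and Kdr 1, where 71.4% of 32851 promoters held at least 1. Nrp1 held 4, and Vegfb and Tek 0. The core of the hypoxia response element, ACGTG on either strand, was in 1 of the 7 promoters of these 6 genes, the internal start of Vegfa, and in 19.6% of all promoters. These are matches of letters only.

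Nrp1 and Tek completed the receptors. Nrp1 (chromosome 8, 128358604 to 128503363, plus strand) was, in libraries 6 to 15, at 33.9 ± 3.12 CPM in controls and 33.7 ± 3.64 CPM after secretome (n = 5 each), and its log2 fold change over all muscles was 0.04 (interval -0.20 to 0.27). Tek (chromosome 4, 94739289 to 94874976, plus strand), the angiopoietin receptor, ran from 13.1 to 26.9 CPM in controls (median 16.4) and from 11.7 to 19.3 CPM in secretome-treated muscle (median 15.9). The upper end of the controls was in libraries 1 to 5, where 3 muscles exceeded 21 CPM. Its log2 fold change was -0.21 over all muscles (p = 0.118, adjusted p = 0.430), 0.01 within libraries 6 to 15, and -0.38 between the outer libraries (p = 0.0289, adjusted p = 0.180).

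Cdh5 (chromosome 8, 104101625 to 104144511, plus strand) and Pecam1 (chromosome 11, 106654217 to 106750628, minus strand), which report the endothelium as a whole, were at like levels in both groups. Cdh5 ran from 26.4 to 71.2 CPM in controls (median 43.1) and from 35.2 to 60.8 CPM after secretome (median 41.9). Pecam1 ran from 26.7 to 63.9 CPM in controls (median 41.0) and from 33.2 to 48.0 CPM after secretome (median 40.8). In both genes the secretome-treated muscles sat inside the range of the controls. The log2 fold change was -0.06 for Cdh5 (interval -0.36 to 0.25, p = 0.712) and -0.06 for Pecam1 (interval -0.33 to 0.22, p = 0.687).

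In libraries 6 to 15 both had lower means after secretome, without passing the test. Cdh5 had a log2 fold change of -0.25 (p = 0.197, adjusted p = 0.648), and Pecam1 one of -0.27 (p = 0.174, adjusted p = 0.628), with 5 of 5 secretome-treated muscles below the control median. Control replicate 9 was the lowest of the 5 controls for both. Without it the values were -0.38 for Cdh5 (p = 0.0191, adjusted p = 0.518) and -0.43 for Pecam1 (p = 0.00326, adjusted p = 0.424), and the differences from the outer libraries were -0.59 for Cdh5 (p = 0.0165, adjusted p = 0.297) and -0.64 for Pecam1 (p = 0.00372, adjusted p = 0.189). Without control replicate 8 instead, the values in libraries 6 to 15 shrank to -0.15 for both genes. The differences from the outer libraries shrank to -0.36 for Cdh5 without control replicate 2, and to -0.37 for Pecam1 without control replicate 8. Between the outer libraries both went the other way, with 0.20 each. In bulk muscle, fewer cells of a type and less RNA per cell cannot be told apart.

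**Figure D2:**
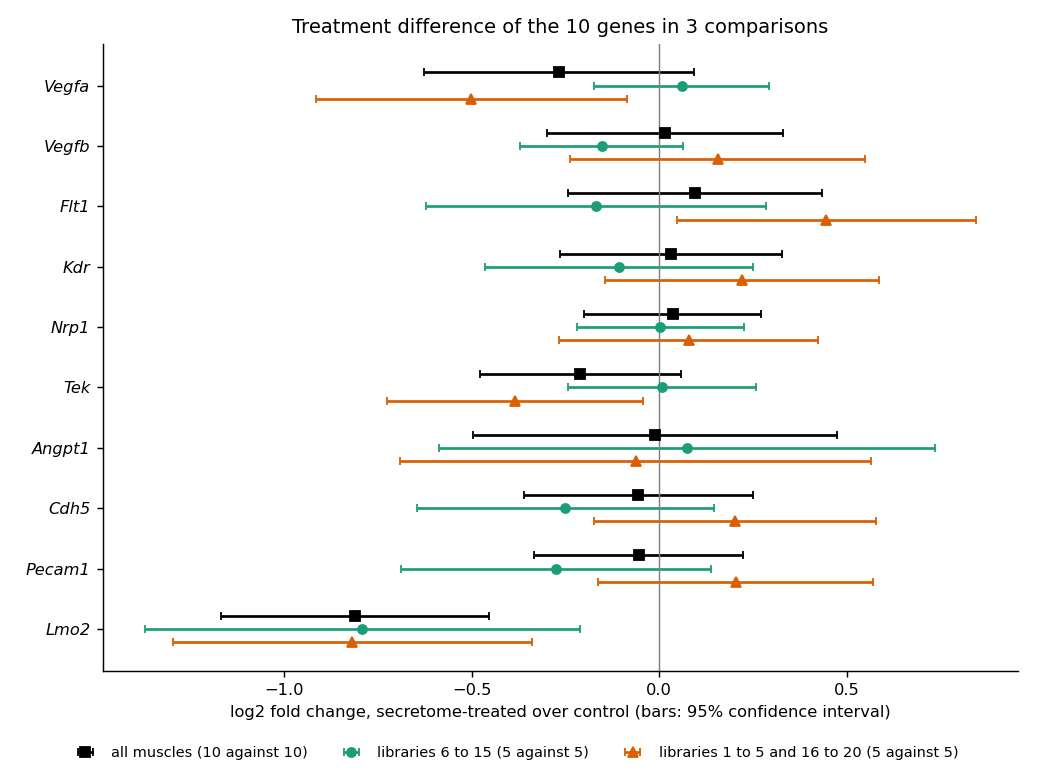
Log2 fold change of secretome-treated over control muscle (horizontal axis) for the 10 genes in 3 comparisons, with 95% confidence intervals from edgeR. The interval of Lmo2 lay below 0 in each of the 3, and those of the other 9 genes included 0 over all muscles and within libraries 6 to 15.

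Lmo2 (chromosome 2, 103957986 to 103981878, plus strand) ran from 2.45 to 6.49 CPM in control muscle, with a median of 4.36, and from 1.65 to 3.34 CPM in secretome-treated muscle, with a median of 2.47. These levels rest on 37 to 117 reads per control and 31 to 59 reads per secretome-treated muscle, the fewest of the 10 genes. All 10 secretome-treated muscles lay below the control median, which held for 3.39% of all genes tested, and 7 of 10 controls lay above every secretome-treated muscle (7 or more did so for 0.753% of genes). The log2 fold change was -0.81 (standard error 0.172, interval -1.17 to -0.45, p = 9.35e-05), rank 10 by p of 14471 genes, with an adjusted p of 0.109. In DESeq2 the log2 fold change was -0.80 with an adjusted p of 0.00628.

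The size was alike in both sets of libraries. In libraries 6 to 10 the controls had 4.22, 3.31, 2.45, 6.49 and 3.31 CPM of Lmo2, and in libraries 11 to 15 the secretome-treated muscles had 3.34, 2.26, 1.65, 1.93 and 2.19 CPM. The groups overlapped through 1 secretome-treated muscle, at 3.34 CPM, which exceeded 3 of the 5 controls, and 4 of 5 secretome-treated muscles lay below every control. Here the log2 fold change was -0.79 (p = 0.0110, adjusted p = 0.450). The two-sided exact permutation test on log2 CPM gave p = 0.0317 for Lmo2 (the smallest it allows with 5 against 5 is 0.00794) and 0.111 to 0.960 for the other 9 genes. At an unadjusted p under 0.05, 1 of 10 genes passed in edgeR within these libraries, against 9.95% of all genes, and 0 of 14469 genes passed the false discovery rate (0.239% of genes with an adjusted p in DESeq2, none of them a member). No member had groups that did not overlap there, as 1.91% of all genes had.

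Between libraries 1 to 5 (5.02, 5.90, 4.50, 4.08 and 5.33 CPM) and libraries 16 to 20 (3.18, 3.25, 2.69, 2.43 and 2.52 CPM) the Lmo2 values did not overlap, which held for 1 of 10 members and 4.85% of all genes. Here the log2 fold change was -0.82 (p = 0.00187, adjusted p = 0.0505). In these libraries 4 of 10 members had an unadjusted p under 0.05 (Lmo2, Vegfa and Tek lower, Flt1 higher) against 21.2% of all genes (11.6% lower and 9.56% higher). The log2 fold change was below 0 for 4 of 10, against 55.4% of all genes, and 0 of 10 passed the false discovery rate, against 3.68%. The difference between the 2 treatment differences of Lmo2 was 0.01, with an interval of -0.68 to 0.71. With any 1 muscle left out, the log2 fold change over all muscles stayed between -0.88 and -0.73, with adjusted p from 0.0612 to 0.234. In libraries 6 to 15 it ran from -0.97 to -0.54, the last without control replicate 9, the muscle at 6.49 CPM.

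Lmo2 did not follow the other endothelial genes across muscles. With group means removed, its r was -0.68 with Cdh5, -0.72 with Pecam1 and -0.60 with Flt1 (-0.50, -0.50 and -0.44 without control replicate 9), while Cdh5 had an r of 0.92 with Pecam1, 0.87 with Flt1, 0.69 with Kdr and 0.69 with Angpt1. The ratio of Lmo2 to Cdh5 was 10.9% ± 5.99 in controls and 5.82% ± 1.98 in secretome-treated muscle. For libraries 6 to 15 alone it was 8.17% ± 6.02 and 5.01% ± 1.87 (medians 5.46% and 4.31%), with control replicate 9 at 18.5%, and in controls of libraries 1 to 5 it was 13.7% ± 5.06. Leukocytes also express Lmo2, and their markers moved in the same direction. Of 10 leukocyte and macrophage markers, 10 had a log2 fold change below 0, against 55.9% of all genes, and 5 were lower at an unadjusted p under 0.05, against 9.21%. With a muscle left out, 8 to 10 were below 0 and 5 to 6 were lower, and the median of -0.59 ran from -0.86 to -0.38, the last without control replicate 3. These were Csf1r (-0.76), the receptor of the macrophage growth factor, Cd74 (-1.18), the invariant chain of antigen presentation, Adgre1 (-0.82), which encodes F4/80, Coro1a (-0.98) and Laptm5 (-0.69).

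The summed level of the 10 leukocyte markers ran from 82.1 to 418.5 CPM in controls (median 165.8) and from 67.3 to 203.1 CPM after secretome (median 83.5). Lmo2 was 2.75% ± 0.895 of that sum in controls and 2.69% ± 0.973 in secretome-treated muscle, a difference smaller than the spread in either group. For libraries 6 to 15 the shares were 2.79% ± 0.381 and 2.98% ± 1.09. In controls of libraries 1 to 5 the share ran from 1.08% to 4.09%. Control replicates 3 and 4 had the highest sums there, 418.5 and 226.6 CPM, and the lowest Lmo2, 4.50 and 4.08 CPM. In libraries 6 to 10, control replicate 9 had both the highest sum, 267.2 CPM, and the highest Lmo2, 6.49 CPM. Cd74 made up 49.0% ± 10.9 of the sum in controls and 41.2% ± 4.86 after secretome. With Cd74 left out of the sum, a choice made after seeing these values, Lmo2 was 5.57% ± 2.29 and 4.59% ± 1.55 of it, and 5.15% ± 0.589 and 5.06% ± 1.53 in libraries 6 to 15. None of the 10 markers was at 0 in all muscles. The part of leukocyte RNA in the Lmo2 difference was not tested.

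**Figure D3:**
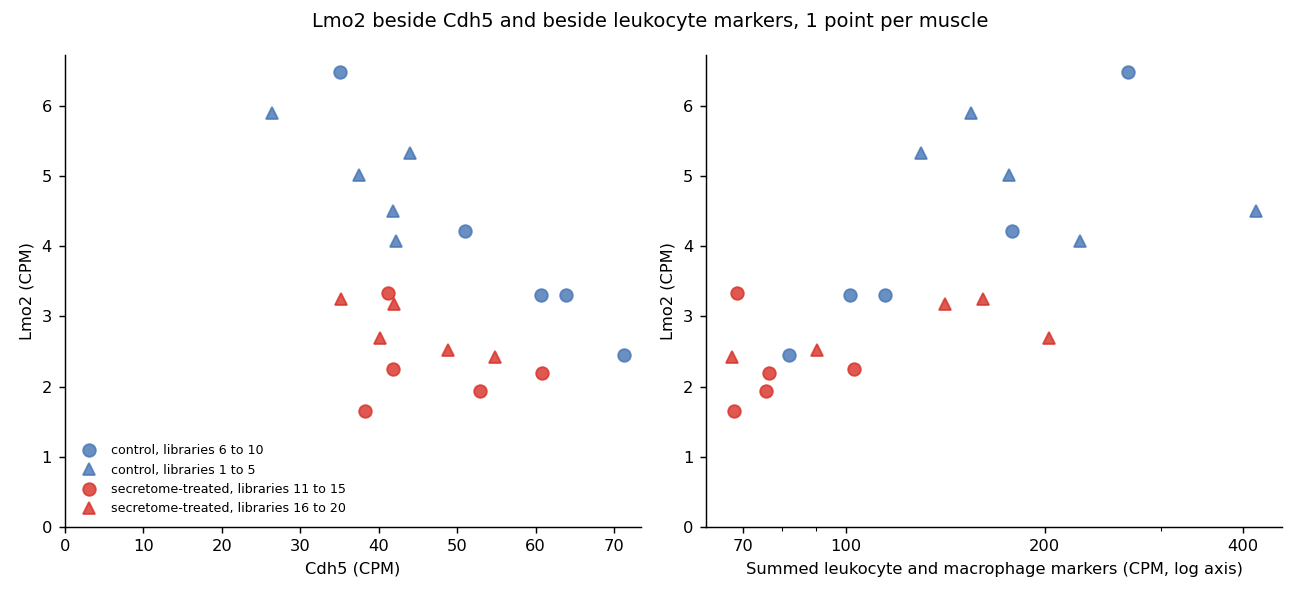
Lmo2 (vertical axes, CPM) beside Cdh5 (left, CPM) and beside the summed level of 10 leukocyte and macrophage markers (right, CPM, log axis), with 1 point per muscle, blue for control and red for secretome-treated, circles for libraries 6 to 15. Secretome-treated muscles were at most 3.34 CPM in Lmo2 at Cdh5 levels that spanned those of most controls.

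LMO2 acts in a complex with the factors TAL1 or LYL1, GATA2, TCF3 and LDB1. The list of 8 genes used here holds these factors and, beside them, Fli1, Hhex and Etv6, with log2 fold changes of -0.26, -0.51 and 0.21. Of the 8, 3 were lower at an unadjusted p under 0.05 over all muscles, against 9.21% of all genes, and 0 higher. The median log2 fold change of the 8 was -0.28 beside -0.03 for all genes. The count lower was 3 or 4 with a muscle left out, 1 was higher without control replicate 3, and 1 was lower with the term for the 3 library ranges. Lyl1 went from 1.88 ± 0.683 to 1.08 ± 0.317 CPM (log2 fold change -0.80, adjusted p = 0.146). Ldb1 went from 20.2 ± 3.05 to 16.4 ± 1.89 CPM (-0.30, adjusted p = 0.158), and Tcf3 from 17.5 ± 4.20 to 13.9 ± 2.02 CPM (-0.33, adjusted p = 0.218). Tal1 had a log2 fold change of -0.05 and Gata2 one of -0.13. In libraries 6 to 15, 0 of the 8 had an unadjusted p under 0.05, with Lyl1 at -0.59 (p = 0.0663), Ldb1 at -0.15 and Tcf3 at -0.15.

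Of 20 other genes of VEGF, angiopoietin and neuropilin signalling, 18 were tested (Angpt4 and Sh2d2a reached at most 14 and 19 reads). Lower at an unadjusted p under 0.05 were 2, a share close to the 9.21% of all genes, and 0 were higher. Svep1, an extracellular matrix protein that binds the receptor TIE1, went from 52.9 ± 18.2 to 38.6 ± 7.66 CPM (log2 fold change -0.45, adjusted p = 0.210), and Nrp2, a co-receptor for VEGF-C, had a log2 fold change of -0.22 (adjusted p = 0.271). With a muscle left out, 1 to 3 of the 18 were lower at that p, and 0 with the replicate block or the term for the 3 library ranges. In libraries 6 to 15, Tie1 was lower (-0.25, p = 0.0262) and Sema3a, a ligand of neuropilin 1, higher (0.51, p = 0.0335), both named after their values were seen. The ligands Vegfc (-0.11), Vegfd (-0.10) and Pgf (-0.55) and the angiopoietin 2 gene Angpt2 (0.13) did not pass over all muscles.

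Among 30 further endothelial identity genes, 26 had a log2 fold change below 0, where 55.9% of all genes did, with a median of -0.15. The count below 0 was also 26 under the RLE and upper-quartile scalings, and 21 (without control replicate 8) to 28 (without control replicate 2) with a muscle left out. Past an unadjusted p of 0.05 were 2, both lower, a smaller share than the 9.21% of all genes. They were Clec14a, a surface lectin (3.98 ± 1.23 to 3.02 ± 0.583 CPM, log2 fold change -0.39, adjusted p = 0.267), and Sox18, a transcription factor (5.84 ± 1.48 to 4.68 ± 0.667 CPM, -0.32, adjusted p = 0.283). Without control replicate 2, 0 passed, and at most 3 with any other muscle left out. Within libraries 6 to 15, 25 of 30 were below 0, where 52.1% of all genes were, and 4 were lower at that p (2 to 5 with a muscle left out) against 4.92% of all genes. Those 4, named after their values were seen, were the tight junction gene Cldn5 (-0.65), Sox18 (-0.42), Kank3 (-0.32) and Mmrn2 (-0.31). None of the 30 passed the false discovery rate in edgeR in either comparison, and 1, Cd34 (-0.71, adjusted p = 0.0263), did in the outer libraries. Cd34 is also expressed by fibroblasts of muscle, and in libraries 6 to 15 it was at 0.17. Of 8 fibroblast markers, 8 were below 0 in the outer libraries (median -0.63), against 55.4% of all genes. Lower there at an unadjusted p under 0.05 were 11.6% of all genes and 4 of these markers. Their summed level had a median of 1566 CPM in controls of libraries 1 to 5, 651.4 in controls of libraries 6 to 10, 564.3 in libraries 11 to 15 and 1037 in libraries 16 to 20. The part of fibroblast RNA in the Cd34 value was not tested.

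Of 13 genes of arteries, veins and lymphatics, 4 were lower at an unadjusted p under 0.05 over all muscles, against 9.21% of all genes, and 0 higher. Gja4 and Gja5, connexins of arterial endothelium, had log2 fold changes of -0.56 (adjusted p = 0.219) and -0.38 (adjusted p = 0.285). Ackr1, a chemokine receptor of venules, had -0.39 (adjusted p = 0.273), and Vwf, the von Willebrand factor gene, had -0.31 (adjusted p = 0.306). With a muscle left out, 1 (without control replicate 8 or secretome replicate 10) to 5 were past that p, and DESeq2 gave 2. Again 4 were lower in libraries 6 to 15, against 4.92% of all genes there (2 to 5 with a muscle left out, 2 without control replicate 8). They were Vwf (-0.59, p = 0.000615, adjusted p = 0.398), Sema3g (-0.44), Ackr1 (-0.59) and Ephb4 (-0.36), and Vwf in the outer libraries was 0.04.

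Of 12 tip cell and Notch genes, 10 were tested and 0 passed an unadjusted p of 0.05 over all muscles or in libraries 6 to 15. With a muscle left out, 0 to 2 were lower over all muscles (2 without control replicate 1 or secretome replicate 3), and DESeq2 gave 1. The smallest p were those of Unc5b (log2 fold change -0.33, p = 0.0619) and Apln (-0.73, p = 0.0741), and the Notch ligand Dll4 had 0.20. Of 17 hypoxia-inducible factors and targets, among which Vegfa is usually counted, 1 was higher and 1 lower over all muscles, against 6.52% and 9.21% of all genes. P4ha1, a collagen prolyl hydroxylase, went from 39.7 ± 6.48 to 46.4 ± 6.14 CPM (0.22, adjusted p = 0.274) and Ndrg1 from 19.9 ± 2.93 to 16.6 ± 2.64 CPM (-0.26, adjusted p = 0.221). None of the 17 passed in libraries 6 to 15, and their median there was -0.0013 beside 0.06 over all muscles.

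Pericyte and smooth muscle markers, the cells that surround the endothelium, had 3 of 10 lower over all muscles at an unadjusted p under 0.05, against 9.21% of all genes, and 0 higher. They were Acta2 (-0.54, adjusted p = 0.166), Tagln (-0.40, adjusted p = 0.204) and Pdgfrb (-0.22, adjusted p = 0.278). DESeq2 gave 2 lower and 1 higher, and the fits with a muscle left out gave 2 to 5 lower and 0 to 1 higher. With the term for the 3 library ranges 1 was lower. In libraries 6 to 15, 1 of 10 was lower, Notch3 (-0.32, p = 0.0273), against 4.92% of all genes. Acta2 (-0.57), Tagln (-0.32) and Pdgfrb (-0.18) did not pass there. The summed level of the 10 was 523.1 to 791.4 CPM in controls and 589.3 to 811.2 CPM after secretome (medians 671.9 and 713.2). Most of that sum was Abcc9, with means of 341.5 CPM in controls and 407.2 CPM after secretome, and Rgs5, with 179.9 and 180.0 CPM. The sum therefore cannot show the direction of Acta2, Tagln and Pdgfrb. Abcc9 was at 0.45 in the outer libraries (p = 0.00507, adjusted p = 0.0801), and which cells its RNA came from was not tested. Platelet and red cell markers had 2 of 8 tested lower, Ppbp (-1.16, adjusted p = 0.264) and Itga2b (-0.69, adjusted p = 0.273), against the same 9.21%. The count was 0 with voom and 0 to 3 with a muscle left out (0 without control replicate 7 or 8), and the median of -0.54 was -0.21 without control replicate 3. Of 6 neutrophil markers tested, 8 fibroblast markers and 8 muscle fibre markers, 0 passed over all muscles. For neutrophils this rested on single muscles, since without control replicate 3 the count was 3 of 6 higher with a median of 1.52 in place of 0.40, and without secretome replicate 8 the median was -0.25. For fibroblasts, 0 to 3 were lower with a muscle left out (3 without control replicate 8). For fibres, 0 of 8 were below 0, against 55.9% of all genes, and 0 to 1 were higher with a muscle left out. DESeq2, the RLE scaling, the fit without a filter and the replicate block each gave 1 higher. In libraries 6 to 15, 4 of the 8 fibre markers were below 0, against 52.1% of all genes, with a median of -0.03. With the term for the 3 library ranges, 4 of 8 were below 0, with a median of -0.04. In the outer libraries 3 of the 8 were higher at an unadjusted p under 0.05, against 9.56% of all genes. There 2 passed the false discovery rate, Ttn (0.86, adjusted p = 0.0120) and Myh4 (0.76, adjusted p = 0.0310), against 3.68%. Over all muscles, the smallest p of these lists were those of S100a9 (1.37) and S100a8 (1.33) for neutrophils, Gsn (-0.50) and Pi16 (-0.64) for fibroblasts, and Myh4 (0.35) and Acta1 (0.16) for fibres.

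**Figure D4:**
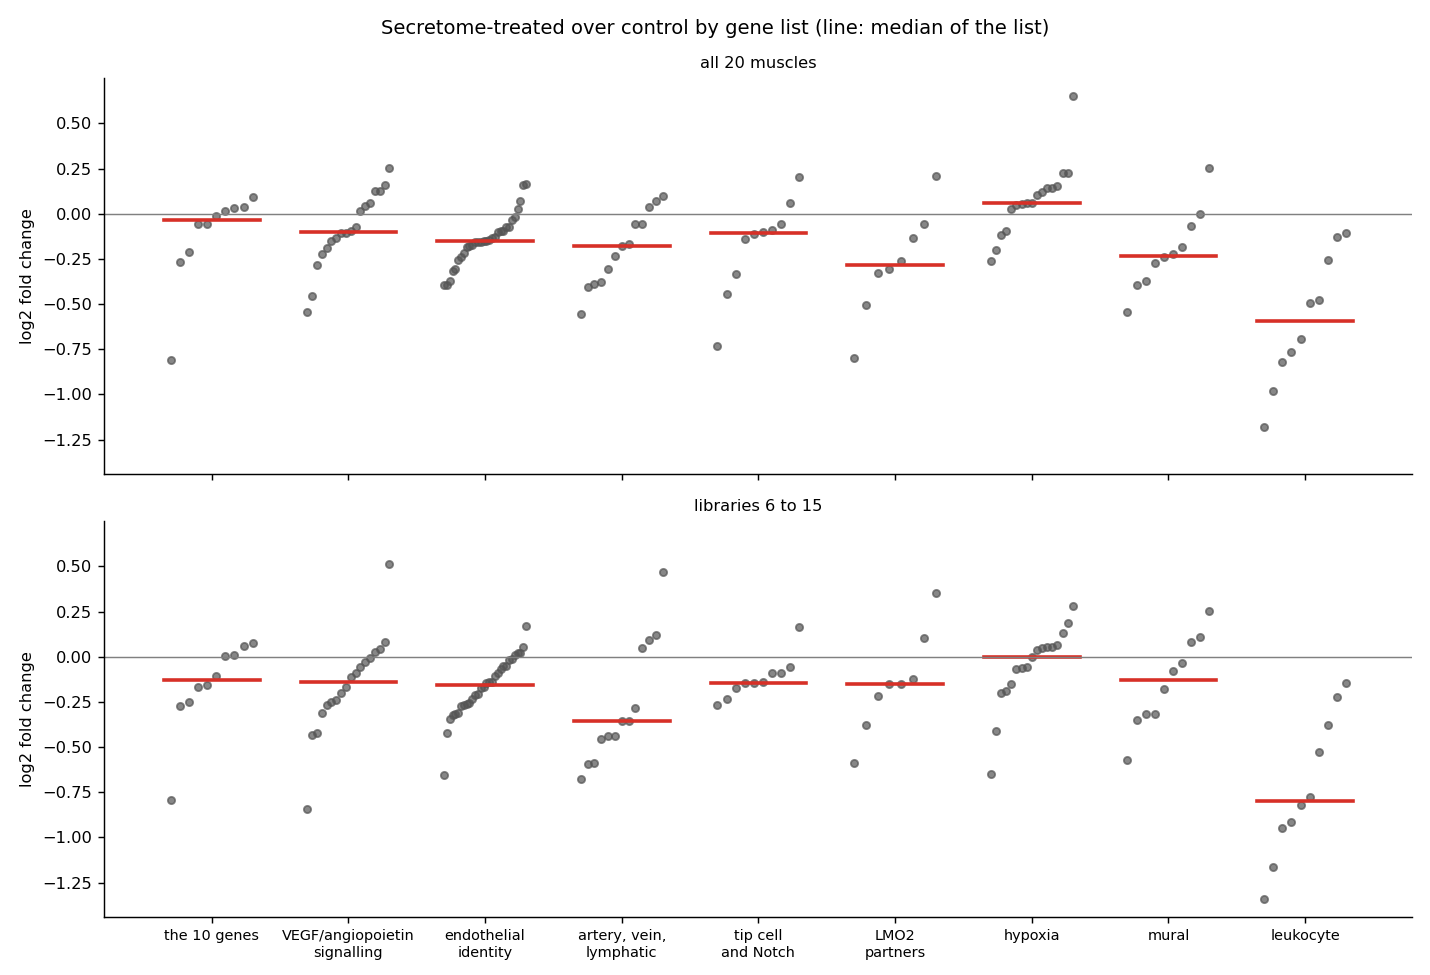
Log2 fold change of secretome-treated over control muscle (vertical axes) for each tested gene of 9 lists, 1 point per gene and a red line at the median of each list, in all 20 muscles (top) and in libraries 6 to 15 (bottom). The leukocyte list had medians of -0.59 and -0.80, and the 10 genes described here had medians of -0.03 and -0.13.

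**Figure D5:**
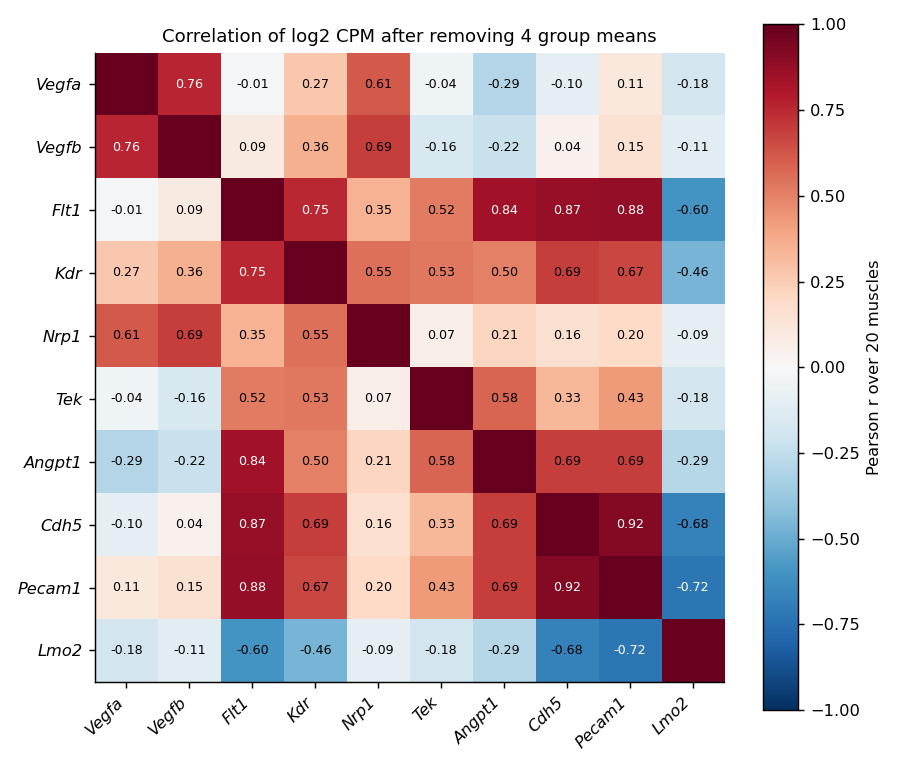
Pearson r between the 10 genes over 20 muscles, on log2 CPM from which the mean of each group of treatment and library range was removed. Cdh5, Pecam1, Flt1, Kdr and Angpt1 had r between 0.50 and 0.92 with each other, and Lmo2 had r below 0 with each of the other 9.

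Among 13172 named genes averaging 1 CPM or more, the 8 whose residual log2 CPM was most like that of Cdh5 over the 20 muscles were Phactr4 (r = 0.93), Pecam1 (0.92), S1pr1 (0.91), Hivep1 (0.89), Atp23 (0.89), R3hdm2 (0.88), Clec16a (0.88) and Eng (0.88). Of these, Pecam1, S1pr1 and Eng are well known in endothelium, and Flt1 stood at rank 11. For Vegfa they were Kcnn1 (0.91), Tnk2 (0.89), Acvr2b (0.86), Tpra1 (0.86) and Cd300lg (0.86), with Vegfb at rank 100. For Lmo2 they were Cmpk1 (0.84), Rufy3 (0.83), Fahd1 (0.76), Fbxo22 (0.75) and Gm20186 (0.74), none of them a partner gene or a leukocyte marker of the lists above.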

How the data were processed

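RNA of quadriceps muscle was sequenced as stranded total RNA. The authors deposited raw counts of reads per gene, whole numbers without normalization, in 1 column per muscle. The submitters' processing notes name cutadapt 1.16, STAR 2.7.9a, featureCounts 1.6.3, DESeq2 1.34.0 and the build GRCm39. The annotation release and the strand setting are not given in the sources used here. The labels' extraction text speaks of myotubes, while the tissue given is quadriceps. Column names gave each muscle's treatment and number, and 0 of the 20 columns were left unmapped. No 2 columns were identical, and 0.550% of counts lay on identifiers without a symbol. Mice were taken as the replicates.

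Symbols, exon lengths, 3′ UTRs and positions came from GENCODE M21 (GRCm38), which is not the build of the counts, so no coordinates were joined. Counts were filtered with filterByExpr, scaled with TMM and tested with the robust quasi-likelihood test of edgeR 4.0.16 in R 4.3.3, with Benjamini-Hochberg adjustment over all genes tested at a 5% false discovery rate. A fit of 4 groups (treatment by library range) gave the outer comparison and the difference of differences. Values are CPM with TMM factors, and correlations and the exact permutation test used log2 CPM with a prior count of 2. Alternatives were DESeq2 1.42.0, voom of limma 3.58.1 with quality weights, other scalings, no filter, a replicate block, a term for the 3 library ranges, a prior count of 0.5 and each muscle left out. The same settings were applied to the counts over lists, and Cd74 was left out of the leukocyte sum, both after seeing the data. The edgeR procedure was tested on simulated data. All 10 genes are named. Of each other list, genes with an unadjusted p under 0.05 over all muscles are named, or the 2 with the smallest p. Genes most like Cdh5, Vegfa and Lmo2 are the 8, 5 and 5 with the highest Pearson r. Other genes of the lists were named after their values were seen. Genes and lists were chosen with earlier results of these data known. Intervals cover the spread between mice.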

Additional observations from a re-analysis of the deposited data

Results flagged for a closer look

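Dixon's ratio (log2 distance of an extreme muscle from its neighbour over the log2 range of its 10 muscles) was computed for each gene and treatment. It passed the 95% limit of 0.466 in 2 of 20 cases, where chance gives about 1. Both were control replicate 2, with 611.6 CPM of Vegfa against 303.7 in the next control (ratio 0.539) and 108.3 CPM of Vegfb against 72.2 in the next (ratio 0.556). The same muscle had the smallest total of the 20 libraries, 13286983 counts, and the lowest Ttn share, 7.02%. The part of either in the 2 values was not tested.

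The treatment difference of Flt1 differed between library ranges at an unadjusted p, by -0.62 on the log2 scale (p = 0.0313). It fell short after adjustment over all genes (edgeR, adjusted p = 0.377). Flt1 was lower in 4 of 5 secretome-treated muscles than the control median within libraries 6 to 15, and higher in 5 of 5 in the outer libraries. In the outer libraries treatment and library number cannot be told apart.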

How the results depend on the processing

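Lmo2 kept its direction and an unadjusted p under 0.05 in every alternative over all muscles, within libraries 6 to 15 and in the outer libraries. It passed the false discovery rate in DESeq2 over all muscles alone. Over all muscles, 7 settings other than leaving a muscle out gave log2 fold changes from -0.83 to -0.66. Their unadjusted p reached 0.00247, and their adjusted p ran from 0.00628 to 0.789. The count of genes past the false discovery rate over all muscles, 1, became 216 with DESeq2, 3 with voom, 0 with the replicate block and 0 with a term for the 3 library ranges, and ran from 0 to 15 with a muscle left out (15 without control replicate 5). With DESeq2, 1 of the 10 genes passed in place of 0. Within libraries 6 to 15, the count of 0 became 11 without a filter and 37 with DESeq2, and 0 to 2 with a muscle left out. The members past an unadjusted p there, 1, became 3 with voom (Vegfb at -0.23 and Pecam1 at -0.31 beside Lmo2) and 1 to 3 with a muscle left out (3 without control replicate 9). In the outer libraries the 532 genes became 216 without a filter and 72 to 823 with a muscle left out (72 without secretome replicate 6, 823 without control replicate 5), and the 4 members became 2 to 4 (2 without secretome replicate 7 or 9). For the difference of differences, the 8 genes became 2 without a filter, 186 with DESeq2 and 1 to 9 with a muscle left out, and the 1 member became 2 without a filter (Pecam1 at -0.51 joined) and 0 to 3 with a muscle left out. The causes were not tested.

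Genes near no difference changed sign in places, at unadjusted p of 0.359 or more. Over all muscles, with the term for the 3 ranges, these were Vegfa (0.049), Vegfb (-0.17), Flt1 (-0.18), Kdr (-0.12), Nrp1 (-0.0091) and Angpt1 (0.064). With voom they were Vegfb (-0.051), Kdr (-0.077) and Angpt1 (0.022), with the replicate block Vegfb (-0.0041) and Angpt1 (0.033), with upper-quartile scaling Vegfb (-0.011), without a filter Angpt1 (0.0083), and with DESeq2 Angpt1 (0.0068). Within libraries 6 to 15 they were Vegfa with voom (-0.0023), Nrp1 with RLE (-0.00072) and without a filter (-0.0057), and Tek without a filter (-0.00040). The difference of differences of Lmo2 was -0.0040 without a filter and -0.0066 with DESeq2. With a muscle left out, the ranges over all muscles were -0.10 to 0.12 for Vegfb, -0.017 to 0.11 for Kdr, -0.029 to 0.089 for Nrp1, -0.12 to 0.10 for Angpt1, -0.12 to 0.028 for Cdh5 and -0.11 to 0.029 for Pecam1. Within libraries 6 to 15 they were -0.0053 to 0.11 for Vegfa, -0.055 to 0.053 for Nrp1, -0.026 to 0.075 for Tek and -0.073 to 0.40 for Angpt1. In the outer libraries they were -0.0035 to 0.36 for Vegfb, -0.052 to 0.20 for Nrp1 and -0.22 to 0.093 for Angpt1. For the difference of differences they were -0.21 to 0.043 for Nrp1, -0.029 to 0.45 for Angpt1 and -0.16 to 0.26 for Lmo2.

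Muscles with the same replicate number did not deviate together, with correlations from -0.240 to 0.220 and 2 of 10 above 0.1, and with the replicate block Lmo2 had a log2 fold change of -0.79 (p = 0.000898, adjusted p = 0.216). Lmo2 had 31 to 117 reads per muscle, the fewest of the 10 genes.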
